A study of Mus musculus with 18 samples.

Results

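The genes described are 10 that mark T lymphocytes and natural killer (NK) cells in mice: Cd3d, Cd3e, Cd3g, Cd4, Cd8a, Gzma, Gzmb, Prf1, Nkg7 and Ccl5. They were taken by symbol, 1 row each in every deposited file, from 55401 genes. Messenger RNA was measured in whole lung, colon and liver of C57BL/6N mice aged 7 weeks. The tested animals were given RECTAS by mouth at 100 mg/kg, suspended in 0.5% carboxymethyl cellulose (CMC), and the others got that vehicle only. Doses were 4 h apart, and organs were collected 8 h after the first one. RECTAS is a small molecule named as a rectifier of aberrant splicing, and the series was made to evaluate splicing. The 6 groups were RECTAS lung, vehicle lung, RECTAS colon, vehicle colon, RECTAS liver and vehicle liver, with 3 libraries in each and 18 in all. No transgene or mutation is named for any group. Whether the libraries within a group are separate animals is not labelled, and a p-value then measures only the spread between these libraries.

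A T cell recognises its target through the T cell receptor, whose signal passes through the CD3 chains, while CD4 or CD8 binds the presenting molecule. Cytotoxic T cells and NK cells then kill by releasing granules in which perforin opens the way for granzymes. The lung holds many such cells in its vessels and walls, the liver sinusoids are rich in NK cells and other innate lymphocytes, and the gut lining holds intraepithelial T cells, many of which carry CD8 as a pair of alpha chains. In whole tissue, fewer cells of a type and less RNA per cell cannot be told apart, so a level below is that of the organ and not of a cell.

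The start of the genes for the granule proteins is shown because the transcripts of Gzma, Gzmb and Prf1 are those whose RECTAS and vehicle libraries lay apart in colon. Of the genes tested in colon, with at least 1 TPM in 3 libraries, 3.43% lay apart with RECTAS above and 2.01% below. Gzmb and Prf1 stayed under 1 TPM in every colon library and were not tested, and Gzma reached 1 TPM only in its RECTAS libraries. A link between the sequences and this separation was not tested. Each line gives the 250 bases before the RefSeq gene start (build GRCm38.p6), 5' to 3' on the gene's own strand, with the core RUNX motif TGTGGT or its reverse complement ACCACA in capitals. RUNX factors are transcription factors of the lymphocyte lineage. The windows are chr13:113100982-113101231 (minus strand) for Gzma, chr14:56262335-56262584 (minus strand) for Gzmb and chr10:61297586-61297835 (plus strand) for Prf1.
Gzma: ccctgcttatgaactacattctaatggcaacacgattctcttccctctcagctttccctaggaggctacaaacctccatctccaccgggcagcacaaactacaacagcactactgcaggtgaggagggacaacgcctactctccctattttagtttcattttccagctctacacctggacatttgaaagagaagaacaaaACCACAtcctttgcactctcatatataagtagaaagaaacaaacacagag
Gzmb: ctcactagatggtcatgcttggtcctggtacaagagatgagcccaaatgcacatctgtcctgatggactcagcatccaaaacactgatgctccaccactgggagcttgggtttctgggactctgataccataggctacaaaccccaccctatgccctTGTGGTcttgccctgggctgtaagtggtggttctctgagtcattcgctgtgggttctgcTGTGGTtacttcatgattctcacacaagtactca
Prf1: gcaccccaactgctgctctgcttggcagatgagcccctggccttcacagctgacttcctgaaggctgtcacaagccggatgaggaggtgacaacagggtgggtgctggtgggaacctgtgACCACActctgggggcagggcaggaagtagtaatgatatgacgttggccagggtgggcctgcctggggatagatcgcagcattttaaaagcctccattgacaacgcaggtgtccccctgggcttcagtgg
Counted from the start, the motif lay at -50 to -45 in Gzma, at -93 to -88 and at -34 to -29 in Gzmb, and at -130 to -125 in Prf1. Nkg7 held it at -83 to -78, while the windows of Cd3d, Cd3e, Cd3g and Cd8a held none, so 4 of the 8 windows found in the table had it. Of 32851 mouse windows of the same length, 14.0% held it on either strand. The ETS core AGGAAG or CTTCCT was in 4 of the 8 windows, against 29.5% of all windows, the CRE core TGACGT or ACGTCA was in 2 of 8, against 6.47%, and TATAAA or TTTATA was in 0 of 8, against 12.4%. These are matches of letters and not shown binding sites. For Gzmb, Prf1 and Cd3e the bases after the RefSeq start were not found in a GENCODE M21 transcript, so the positions hold for the RefSeq start only. On GRCm38 with GENCODE M21, all 10 are protein-coding genes. Cd3g (chr9:44969572-44980431, minus strand) and Cd3d (chr9:44981786-44987339, plus strand) face away from each other, with starts 1355 bases apart, and Cd3e lies beside them (chr9:44998740-45009627, minus strand). Cd4 is at chr6:124864692-124888221 (minus), Cd8a at chr6:71373427-71379173 (plus), Gzma at chr13:113093825-113100981 (minus) and Gzmb at chr14:56258838-56262260 (minus). Prf1 is at chr10:61297833-61304680 (plus), Nkg7 at chr7:43437073-43438249 (plus) and Ccl5 at chr11:83525778-83530518 (minus).

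Expression was deposited as TPM, a gene's share of the transcripts in a library after correction for length, and this unit keeps no read depth. The depth behind each value is therefore unknown, and values under 1 TPM are read as low levels only. Tissue markers matched the labels: the surfactant gene Sftpc lay at 28612 to 35899 TPM in lung, the colonocyte transporter gene Slc26a3 at 171 to 419 TPM in colon and albumin (Alb) at 57361 to 75688 TPM in liver. In lung, Alb was 0.81, 28.5 and 334 TPM with RECTAS, against 9.07, 292 and 782 TPM with vehicle, so its level varied widely between lung libraries and stayed far below that of liver. Hbb-bs, a red cell globin gene, was at 2368 to 4481 TPM in lung, 10.7 to 45.8 TPM in colon and 132 to 242 TPM in liver. Its part in the lung levels of lymphocyte genes was not tested. The thymocyte genes Rag1, Rag2 and Ptcra did not exceed 0.03, 0.03 and 0.11 TPM in any library. The same list also holds Dntt and Cd1d1, which were not that low in liver and are described at the end. With them, its sum was 148 to 174 TPM in RECTAS liver libraries and 158 to 185 TPM in vehicle liver libraries. Ptprc, the CD45 gene carried by all white blood cells, was at 27.0 to 32.4 TPM in lung, 3.72 to 6.06 TPM in colon and 2.29 to 4.35 TPM in liver.

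Cd3d encodes the CD3 delta chain of the receptor complex. In lung it was at 2.85, 3.28 and 3.61 TPM with RECTAS, against 4.67, 3.69 and 2.86 TPM with vehicle. The colon libraries had 0.52, 0.79 and 1.24 TPM with RECTAS, against 0.31, 0.68 and 1.29 TPM with vehicle. In liver it read 0.40, 0.21 and 0.33 TPM with RECTAS, against 0.21, 0.33 and 0.34 TPM with vehicle. Every lung library lay above every colon and liver library, colon and liver overlapped, and treatment groups overlapped in each tissue. Cd3e encodes CD3 epsilon, which pairs with both other chains. Lung libraries held 3.30, 4.57 and 2.94 TPM of it with RECTAS, against 4.48, 4.64 and 2.06 TPM with vehicle. In colon the values were 0.88, 1.89 and 2.33 TPM with RECTAS, against 1.17, 1.56 and 2.71 TPM with vehicle. Liver had 0.45, 0.62 and 1.01 TPM with RECTAS, against 1.04, 0.73 and 0.92 TPM with vehicle. Lung and colon overlapped for this chain, since the lowest lung library (vehicle 3) lay under the highest colon library of each treatment, and colon overlapped liver. Cd3g, the gamma chain, was the highest of the CD3 genes in every lung library, at 5.17, 9.59 and 7.79 TPM with RECTAS, against 8.00, 6.95 and 6.05 TPM with vehicle. Colon gave 2.02, 2.82 and 3.76 TPM with RECTAS, against 1.59, 2.23 and 3.67 TPM with vehicle. Liver gave 0.62, 0.73 and 0.92 TPM with RECTAS, against 0.97, 0.80 and 1.02 TPM with vehicle. This was a gene whose tissues lay fully apart in the order lung, colon, liver.

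Cd4 encodes the co-receptor of helper and regulatory T cells, and in mice some other white cells carry it too. In lung it was at 1.89, 2.72 and 2.21 TPM with RECTAS, against 2.55, 2.18 and 1.54 TPM with vehicle. Colon libraries read 0.40, 0.52 and 0.87 TPM with RECTAS, against 1.16, 0.88 and 0.68 TPM with vehicle. Liver libraries read 0.34, 0.60 and 0.66 TPM with RECTAS, against 0.31, 0.40 and 0.58 TPM with vehicle. Colon and liver overlapped, and both lay under every lung library. Cd8a encodes the alpha chain of the co-receptor of cytotoxic T cells. Its lung values were 1.99, 2.72 and 2.33 TPM with RECTAS, against 2.68, 2.5 and 1.95 TPM with vehicle. Its colon values were 1.02, 1.39 and 1.45 TPM with RECTAS, against 0.71, 0.89 and 1.37 TPM with vehicle. In liver it was close to 0, at 0.07, 0.14 and 0.13 TPM with RECTAS, against 0.27, 0.04 and 0.18 TPM with vehicle. Cd8a, like Cd3g, put lung above colon and colon above liver without overlap over the 6 libraries of each tissue.

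**Figure D1:**
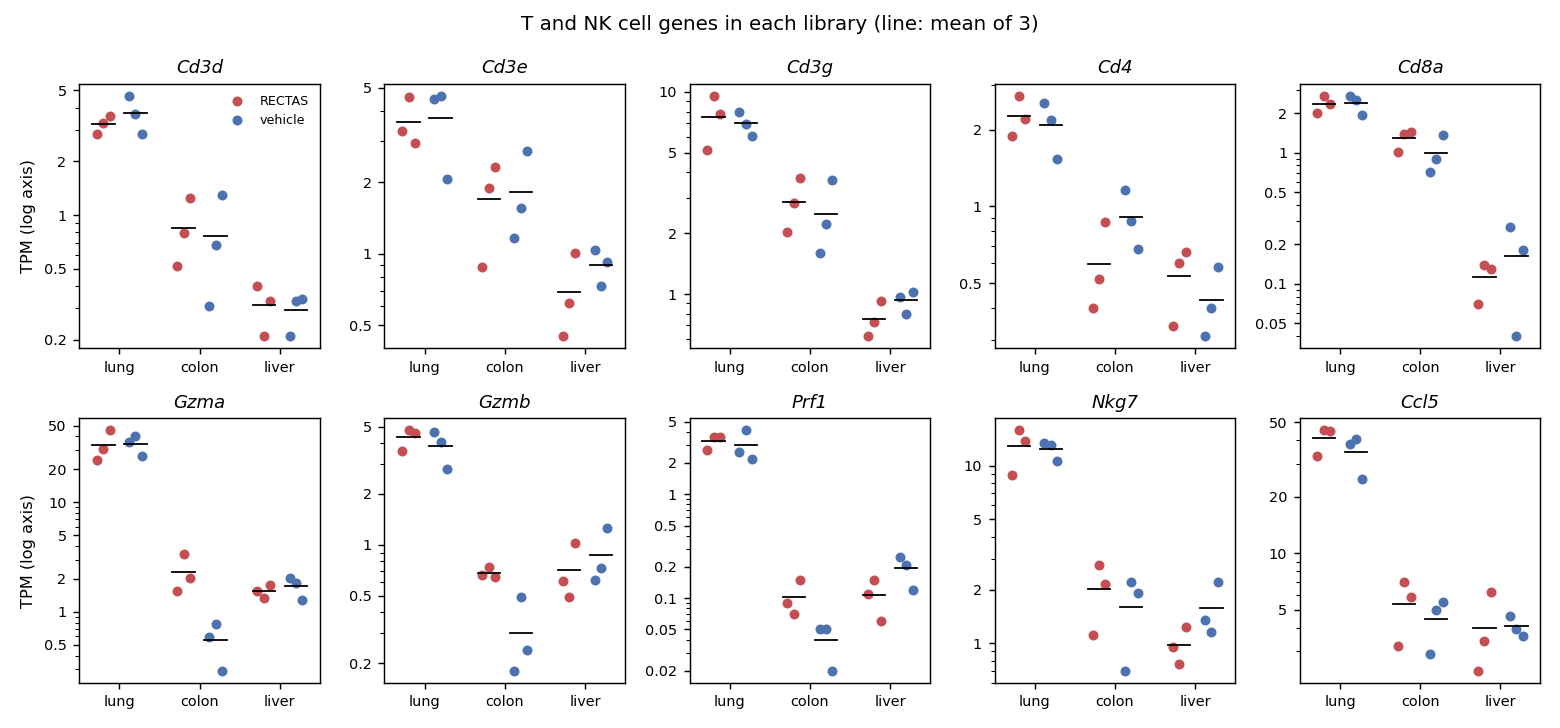
Each panel plots 1 gene in TPM on a log axis, with RECTAS (red) left of vehicle (blue) in lung, colon and liver; points are libraries and lines are means of 3. Lung stands highest in all 10 panels of TPM as deposited, with colon reaching into its range for Cd3e only. Colon RECTAS libraries lie above colon vehicle libraries for Gzma, Gzmb and Prf1, as for 3.43% of the genes tested in colon, where Gzmb and Prf1 were not tested.

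Gzma encodes granzyme A, a granule protease of NK cells and cytotoxic T cells. In lung it was at 24.3, 30.6 and 45.1 TPM with RECTAS, against 35.1, 40.1 and 26.4 TPM with vehicle. In colon it was at 1.54, 3.40 and 2.03 TPM with RECTAS, against 0.59, 0.77 and 0.29 TPM with vehicle. Liver libraries had 1.56, 1.33 and 1.76 TPM with RECTAS, against 2.02, 1.85 and 1.27 TPM with vehicle. The RECTAS colon libraries all lay above the vehicle ones, while the lung and liver groups overlapped. Gzmb encodes granzyme B, the protease that triggers death of the target cell by cleaving caspases. Lung had 3.58, 4.75 and 4.61 TPM with RECTAS, against 4.67, 4.05 and 2.79 TPM with vehicle. Colon had 0.66, 0.74 and 0.65 TPM with RECTAS, against 0.18, 0.49 and 0.24 TPM with vehicle. In liver the values were 0.61, 0.49 and 1.02 TPM with RECTAS, against 0.62, 0.73 and 1.26 TPM with vehicle. Again the colon groups lay apart, both under 1 TPM. Prf1 encodes perforin, the pore-forming protein of the granule. It read 2.68, 3.59 and 3.57 TPM in RECTAS lung libraries, against 2.57, 4.11 and 2.2 TPM in vehicle lung libraries. It was 0.09, 0.07 and 0.15 TPM in RECTAS colon libraries, against 0.05, 0.05 and 0.02 TPM in vehicle colon libraries. In liver it was 0.11, 0.15 and 0.06 TPM with RECTAS, against 0.25, 0.21 and 0.12 TPM with vehicle. Prf1 reached 1 TPM only in lung libraries, and its colon groups lay apart at levels close to 0.

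Nkg7 encodes a membrane protein of cytotoxic granules. Lung values were 8.94, 15.9 and 13.9 TPM with RECTAS, against 13.4, 13.1 and 10.6 TPM with vehicle. Colon values were 1.12, 2.78 and 2.17 TPM with RECTAS, against 0.70, 2.21 and 1.91 TPM with vehicle. Liver values were 0.95, 0.77 and 1.23 TPM with RECTAS, against 1.35, 1.16 and 2.22 TPM with vehicle. Colon and liver covered much the same range, and treatment groups overlapped in each tissue. Ccl5 encodes a chemokine that memory and cytotoxic lymphocytes store and secrete and that other cells can also make. It was at 33.1, 45.2 and 44.9 TPM in RECTAS lung libraries, against 38.4, 40.6 and 24.8 TPM in vehicle lung libraries. Colon had 3.20, 7.06 and 5.82 TPM with RECTAS, against 2.91, 4.97 and 5.47 TPM with vehicle. Liver had 2.36, 3.42 and 6.18 TPM with RECTAS, against 4.62, 3.97 and 3.63 TPM with vehicle. With Gzma, Ccl5 was the most abundant of the 10 in lung, and it was the most abundant in every colon and liver library. Over the 6 libraries of each tissue, lung lay above liver for 10 of the 10 genes and above colon for 9, and colon lay above liver for 2.

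Levels were compared between tissues in the 9 vehicle libraries, as differences in log2(TPM + 1) with limma and Benjamini-Hochberg adjustment over 16715 genes. This scale understates the change of genes near or under 1 TPM, so ratios of mean TPM are given beside it. Lung was higher than liver for all 10 genes (10 of 10), where 74.5% of all genes tested were called higher and 13.5% lower. The median difference was 1.78 for the 10 genes and 1.10 for all genes tested. Against colon, lung was again higher for 10 of 10, where 51% of all genes were called higher and 24.7% lower, with medians of 1.66 and 0.35. Being higher in lung than liver was common among all genes, and that count alone therefore separates these genes little from the rest. Against colon the share of all genes was lower, at 51%. No test compared the 10 genes as a set with all genes.

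Gzma had the widest gap on the log2(TPM + 1) scale in both comparisons. It was higher in lung than liver by 3.67 (SE 0.19, adjusted p = 8.27e-08) and than colon by 4.48 (adjusted p = 3.91e-08), a mean of 33.9 ± 6.91 TPM in lung against 0.55 ± 0.242 in colon and 1.71 ± 0.393 in liver (SD, n = 3 each). As ratios of means, vehicle lung had 61.6 times the colon level and 19.8 times the liver level of Gzma. The lung over colon ratio of mean TPM was higher for Prf1 at 74.0, whose colon level is near 0, and was 12.6 for Gzmb, 7.77 for Ccl5, 7.72 for Nkg7, 4.92 for Cd3d, 2.80 for Cd3g, 2.40 for Cd8a, 2.31 for Cd4 and 2.06 for Cd3e. By this ratio the 5 cytotoxic genes stood above the CD3 and co-receptor genes between lung and colon. The lung over liver ratio mixed the roles, with 15.3 for Prf1, 14.6 for Cd8a, 12.7 for Cd3d, 8.49 for Ccl5, 7.86 for Nkg7, 7.53 for Cd3g, 4.86 for Cd4, 4.41 for Gzmb and 4.16 for Cd3e. In log2(TPM + 1), Ccl5 differed by 2.78 (SE 0.23) from liver and 2.71 from colon, and Nkg7 by 2.39 (SE 0.25) and 2.41. Prf1 differed by 1.70 (SE 0.16) from liver and 1.90 from colon, and Gzmb by 1.37 (SE 0.18) and 1.88. Among the CD3 genes, lung exceeded liver by 1.86 (SE 0.21) for Cd3d, 1.27 (SE 0.26) for Cd3e and 2.05 (SE 0.20) for Cd3g, and exceeded colon by 1.45, 0.73 and 1.23. For the co-receptors the lung-liver differences were 1.10 (SE 0.15) for Cd4 and 1.54 (SE 0.15) for Cd8a, and the lung-colon differences were 0.69 and 0.77. The largest adjusted p was 0.00134 against liver and 0.0301 against colon, both for Cd3e. The Cd3e call against colon was lost without lung vehicle 1 (adjusted p = 0.1), lung vehicle 2 (0.11), colon vehicle 1 (0.104) or colon vehicle 2 (0.0814).

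These directions depend in part on scaling, since TPM is a share of each library. The median of all genes between lung and liver was 1.10 as deposited, 0.24 with median ratio scaling and 0.0037 with quantile normalisation. With the shift so reduced, 9 of the 10 genes were called higher in lung than liver with median ratios and 4 with quantile normalisation, under which Cd3e (-0.22), Cd4 (-0.27) and Gzmb (-0.13) turned to the lower side. Against colon, where the median of all genes was 0.35 as deposited, 0.087 with median ratios and -0.0058 with quantile normalisation, the first scaling left 9 genes called higher and the second 7, and none of the 10 changed direction. Gzma, Ccl5, Nkg7 and Cd3g were past the threshold in both lung comparisons under all 21 alternatives.

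Colon and liver were much closer to each other. In vehicle libraries 3 genes were higher in colon, where 63.8% of all genes were called higher, and 2 were lower, where 16.1% were called lower. The 10 genes had a median difference of 0.24 and all genes tested one of 0.68. Cd3g (0.82, adjusted p = 0.0043), Cd8a (0.77, adjusted p = 0.000965) and Cd4 (0.41, adjusted p = 0.0293) were higher in colon with limma, while Gzma (-0.81, adjusted p = 0.00307) and Gzmb (-0.51, adjusted p = 0.0276) were lower. The other 5 did not pass, with Cd3e at 0.53, Cd3d at 0.41, Ccl5 at 0.07, Nkg7 at -0.01 and Prf1 at -0.20. The median of all genes was 0.68 as deposited, 0.11 with median ratios and 0.0085 with quantile normalisation, and the split was not steady: 1 gene was higher and 3 lower with median ratios, and 0 higher and 5 lower with quantile normalisation (Gzma, Gzmb, Prf1, Nkg7 and Ccl5). That normalisation turned the sign of Ccl5 (-0.76), which was called, and of Cd3d (-0.24), Cd3e (-0.28), Cd3g (-0.01) and Cd4 (-0.33), which were not. The call for Cd4 was lost without colon vehicle 1 (adjusted p = 0.0986), colon vehicle 2 (0.059), liver vehicle 1 (0.0946) or liver vehicle 2 (0.0737). That for Gzmb was lost without colon vehicle 1 (0.0847), colon vehicle 3 (0.0745) or liver vehicle 3 (0.103). Calls of higher in colon were gained for Cd3d without colon vehicle 1 (0.0187) and for Cd3e without colon vehicle 1 (0.0498) or lung vehicle 3 (0.0296). In the RECTAS libraries 4 genes were higher in colon and 0 lower, and Gzma then stood at 0.35.

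**Figure D2:**
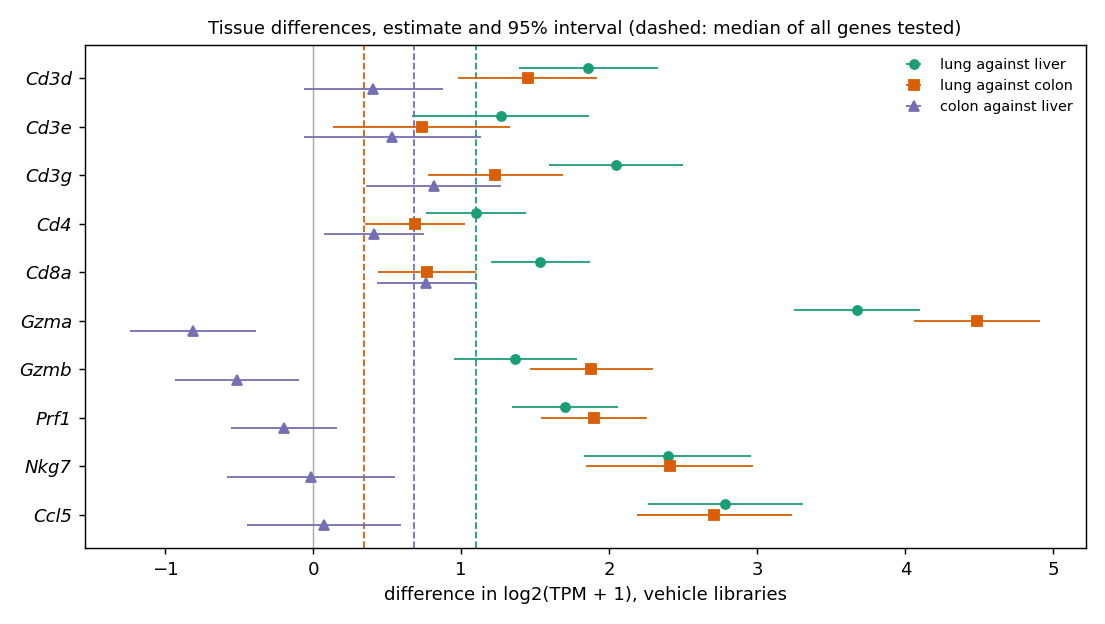
Points give the difference in log2(TPM + 1) between tissues in vehicle libraries and bars its 95% interval, for lung against liver (green), lung against colon (orange) and colon against liver (violet); dashed lines mark the median of all genes, 1.10, 0.35 and 0.68. Gzma, Nkg7 and Ccl5 lie far right of both lung medians, while under quantile normalisation Cd3e, Cd4 and Gzmb fall under 0 in lung against liver and Cd3d, Cd3e, Cd3g, Cd4 and Ccl5 do in colon against liver.

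Ratios between genes of 1 library do not move with a common scaling factor, and those given here were chosen after the values were seen and carry no test. The summed CD3 genes over Ptprc ran from 0.41 to 0.60 in lung (median 0.48), from 0.72 to 1.92 in colon (1.05) and from 0.52 to 0.75 in liver (0.63), over 6 libraries each. By the medians, CD3 per unit of CD45 transcript was highest in colon and lowest in lung, with ranges that overlapped between neighbours. Gzma over the CD3 sum was 1.75 to 3.15 in lung (median 2.28), 0.038 to 0.62 in colon (0.23) and 0.56 to 1.06 in liver (0.88). Ccl5 over the CD3 sum was 2.24 to 3.13 in lung, 0.71 to 1.28 in colon and 1.59 to 2.73 in liver. By the medians, both were lowest relative to CD3 in colon. Cd8b1, the beta chain with which CD8 alpha pairs on conventional cytotoxic T cells, stood to Cd8a at 0.94 to 1.33 in lung (median 1.04) and at 0.022 to 0.22 in colon (median 0.043). In liver, where Cd8a is near 0, that ratio ran from 0 to 2.6. Colon thus held Cd8a transcript with little Cd8b1, and lung held both at like levels. Cd8a over Cd4 was 1.0 to 1.27 in lung, 0.61 to 2.67 in colon and 0.10 to 0.87 in liver.

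**Figure D3:**
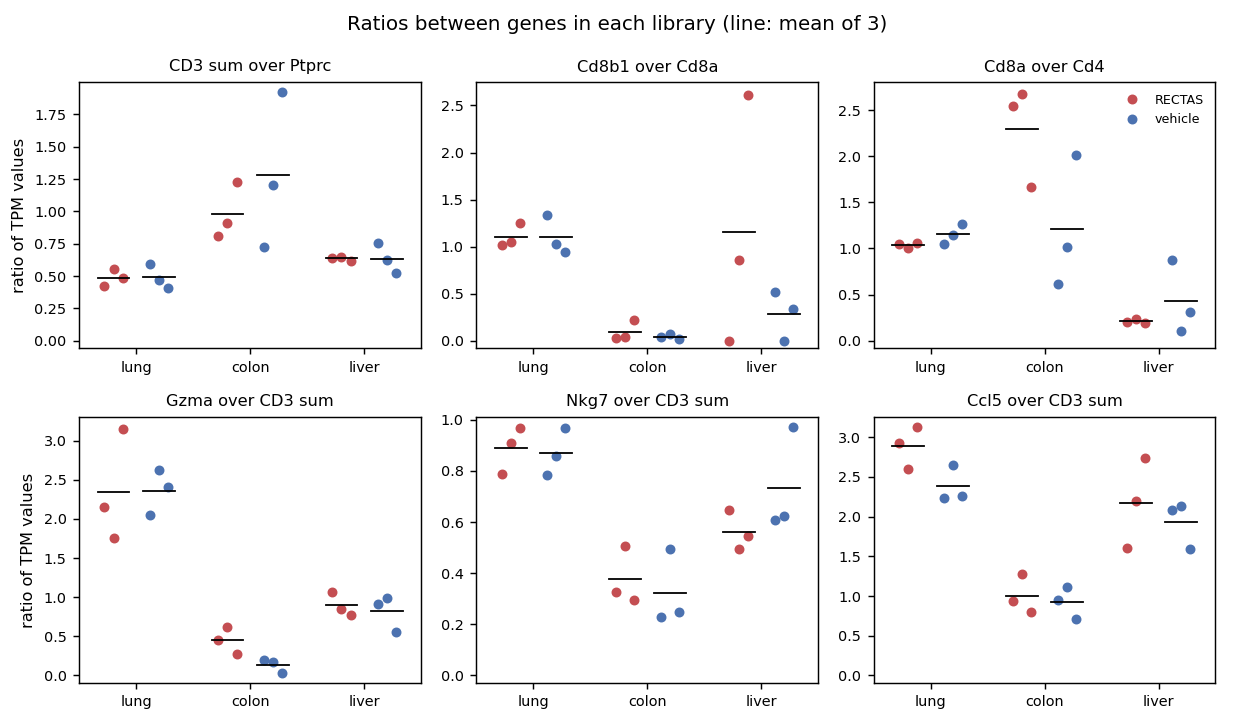
Each panel plots a ratio of TPM values in each library (no unit), with RECTAS (red) left of vehicle (blue) in lung, colon and liver, and lines at the mean of 3. Cd8b1 over Cd8a lies near 1.04 in lung and near 0.043 in colon, and Gzma over the CD3 sum is 0.28 to 0.62 in RECTAS colon libraries and 0.038 to 0.19 in vehicle colon libraries.

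Other lymphocyte genes were followed in lists, on TPM as deposited and without a repeat under other scalings. The shares of all genes to read their counts against are 74.5% higher in lung than liver, 51% higher in lung than colon and 63.8% higher in colon than liver. Of 20 further T cell receptor pathway genes, 15 passed the filter in the tissue comparison. Lung was called higher than liver for 14 of them and higher than colon for 15. Trbc2, a T cell receptor beta constant region, was at 16.4 to 30.1 TPM in lung, 2.03 to 7.00 TPM in colon and 1.27 to 3.68 TPM in liver. The exception against liver was Zap70, the kinase that docks on the CD3 chains, which was at 4.47 to 7.99 TPM in lung, 0.36 to 1.03 TPM in colon and 8.27 to 13.7 TPM in liver (lung minus liver -0.47, limma adjusted p = 0.0126). Zap70 thus stood in liver far above its CD3 partners. Of 16 NK receptor and factor genes, 12 were tested, with lung called higher than liver for 11 and than colon for 12. Klrd1, the CD94 subunit of NK receptors, was at 8.40 to 16.1 TPM in lung, 2.03 to 3.36 TPM in colon and 0.38 to 0.73 TPM in liver. S1pr5, the sphingosine phosphate receptor by which NK cells leave tissue, was the exception, at 1.35 to 2.25 TPM in lung, 0.02 to 0.09 TPM in colon and 2.24 to 3.26 TPM in liver.

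Of 4 gamma-delta T cell genes tested, lung was called higher than liver for 4 but higher than colon for 1, Sox13, a transcription factor also made by other cells. Trgc1, a T cell receptor gamma constant region, was at 1.88 to 2.51 TPM in lung, 1.01 to 3.15 TPM in colon and 0.04 to 0.48 TPM in liver, and its lung minus colon difference was 0.08 (limma adjusted p = 0.78). Colon was called higher than liver for 4 of the 4, and no difference of these counts from all genes was tested. Among 10 tested tissue residence genes, lung was higher than colon for 7 and lower for 2. Rgs1, a regulator of chemokine receptor signalling, was lower in lung, at 1.55 to 4.56 TPM in lung, 10.3 to 33.0 TPM in colon and 1.11 to 4.84 TPM in liver. The 8 genes of naive and recirculating lymphocytes were all called higher in lung than in liver (8 of 8) and colon (8 of 8). White cell genes shared by all leukocytes (6 of 6 in both comparisons) and B cell genes (12 of 12 against liver, 11 of 12 against colon) were also called higher in lung.

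RECTAS was compared with vehicle within each tissue with limma. None of the 10 genes passed the adjusted threshold in any tissue, and few genes of any kind did. An unadjusted p under 0.05 was reached by 1 of those tested in colon (Gzma), 0 in lung and 0 in liver. In lung 10 of the 10 were tested and 0 called, where 0.00637% of 15699 genes were called (1 gene) and 12.6% had an unadjusted p under 0.05. The estimates ran from -0.14 for Cd3d (95% interval -0.53 to 0.24) to 0.26 for Ccl5 (-0.23 to 0.75, adjusted p = 0.628). No lung group lay apart from the other for any of the 10, where 16.1% of all genes had RECTAS above vehicle throughout and 3.18% below. Across the 10 genes no interval reached above 0.75 or below -0.62. For Gzma the lung interval was -0.61 to 0.52, and for Cd3e it was -0.62 to 0.62.

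In liver, only Gzma, Nkg7 and Ccl5 passed the filter of 1 TPM in 3 libraries, and 0 of these 3 were called, where 0.0167% of 11944 genes were called and 11.6% had an unadjusted p under 0.05. Gzma differed by -0.08 (95% interval -0.43 to 0.26), Ccl5 by -0.09 (-0.72 to 0.53) and Nkg7 by -0.36 (-0.79 to 0.07, limma adjusted p = 0.495). The groups of all 10 overlapped, where 5.75% of all genes tested lay apart with RECTAS above and 13% with RECTAS below.

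In colon, 6 of the 10 passed the filter and 0 were called, where 0% of 14282 genes were called (0 genes) and 1.62% had an unadjusted p under 0.05. Gzma averaged 2.32 ± 0.964 TPM with RECTAS and 0.55 ± 0.242 TPM with vehicle (SD, n = 3 each), a ratio of means of 4.22. Its difference in log2(TPM + 1) was 1.07 (SE 0.25, 95% interval 0.50 to 1.65), and its limma adjusted p was 1. Gzma passed the filter only through its RECTAS libraries, and over the 13 alternatives in which it was still tested the difference ran from 0.39 to 1.90 with adjusted p between 0.425 and 1. Gzmb averaged 0.683 ± 0.0493 TPM with RECTAS and 0.303 ± 0.164 TPM with vehicle (SD, n = 3 each). Prf1 averaged 0.103 ± 0.0416 TPM with RECTAS and 0.04 ± 0.0173 TPM with vehicle (SD, n = 3 each). Both were under the filter and not tested. Groups lay apart with RECTAS above for these 3 of the 10 genes and with RECTAS below for 0. Among the genes tested, 3.43% lay apart with RECTAS above and 2.01% below, a share to which Gzmb and Prf1 do not belong, since both failed the filter. Of the 6 members tested, 1 lay apart, and Gzma was tested only because its RECTAS libraries were high. Of the other cytotoxic genes, Nkg7 differed by 0.23 (-0.51 to 0.96) and Ccl5 by 0.20 (-0.49 to 0.89), with overlapping groups. Both intervals overlap that of Gzma, and no test compared these genes with it. Among the CD3 and CD8 genes tested, the intervals of Cd3e at -0.06 (-0.74 to 0.61), Cd3g at 0.16 (-0.46 to 0.79) and Cd8a at 0.21 (-0.23 to 0.65) all included 0. These intervals are wide, so the lack of a call does not show a lack of change. Cd4 averaged 0.597 ± 0.244 TPM with RECTAS and 0.907 ± 0.241 TPM with vehicle (SD, n = 3 each), and the groups overlapped.

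**Figure D4:**
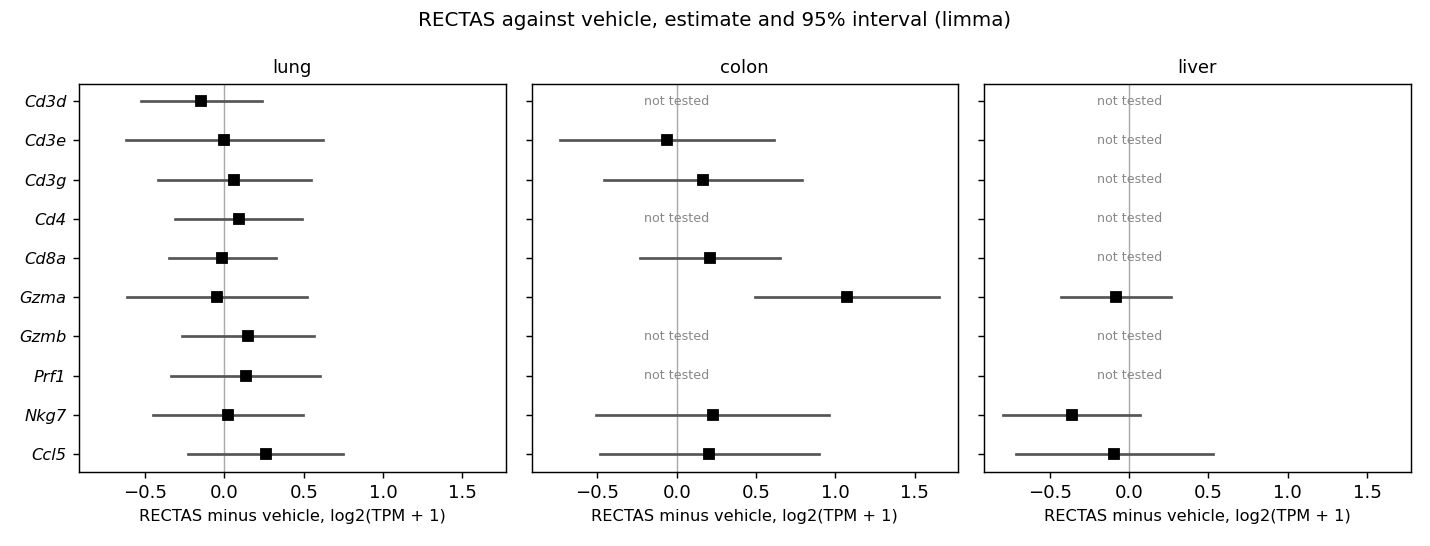
Squares give the RECTAS minus vehicle difference in log2(TPM + 1) for each gene in lung, colon and liver, and bars its 95% interval; genes under the filter are marked as not tested. The interval of colon Gzma, 0.50 to 1.65, is the 1 interval that leaves out 0, and its adjusted p over all genes was 1. Gzma was tested in colon only because its RECTAS libraries reached 1 TPM, which none of its vehicle libraries did.

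Markers of other cells moved among the colon libraries. In RECTAS colon library 3, the B cell gene Cd79a was at 5.95 TPM, while no other colon library exceeded 0.73 TPM. This gene was looked up after the values were seen. The list of 12 B cell genes did not peak there by its sum, which was 40.0, 108 and 50.9 TPM in RECTAS colon libraries 1 to 3, against 70.3, 32.9 and 95.7 TPM in vehicle colon libraries. Only 2 of the 12 passed the filter in colon, with 1 positive and 1 negative RECTAS difference, so the median below rests mostly on genes under the filter. Relative to the tissue mean, the median deviation of 12 B cell genes in RECTAS colon libraries 1 to 3 was -0.21, -0.06 and 0.93 on the log2 scale, against -0.23, -0.21 and -0.19 in vehicle colon libraries. The 6 pan-leukocyte genes deviated by -0.25, 0.30 and 0.38 with RECTAS, against -0.15, -0.22 and -0.04 with vehicle. The 10 T and NK cell genes deviated by -0.23, 0.14 and 0.24 with RECTAS, against -0.38, -0.05 and 0.13 with vehicle. Gzma was at 1.54, 3.40 and 2.03 TPM in the same RECTAS libraries, against 0.59, 0.77 and 0.29 TPM in the vehicle libraries. Beside the CD3 sum of the same library, Gzma was 0.28 to 0.62 with RECTAS and 0.038 to 0.19 with vehicle. That ratio was chosen after the values were seen and reuses the Gzma values above. The CD3 sum averaged 5.42 TPM with RECTAS and 5.07 TPM with vehicle, so the ratio repeats the Gzma difference and adds no separate evidence. The part of white cell content in the Gzma difference was not tested. Without any 1 RECTAS colon library Gzma failed the filter and was not tested.

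In lung, 2 libraries stood low across the list. RECTAS lung library 1 had the lowest value for 4 of the 10 genes and vehicle lung library 3 for the other 6, with median deviations of -0.16 and -0.31. Red cell and platelet genes deviated by -0.43, -0.04 and 0.18 in RECTAS lung libraries 1 to 3, against 0.38, 0.27 and -0.35 in vehicle lung libraries 1 to 3, and so were also low in both. RECTAS library 2 had the highest value for 6 of the 10 genes and a median deviation of 0.22, with red cell and platelet genes near the tissue mean. Other lists were low in RECTAS lung library 1 and vehicle lung library 3 too. Pan-leukocyte genes deviated by -0.16 and -0.20, neutrophil genes by -0.46 and -0.20 and B cell genes by -0.10 and -0.22. Macrophage and monocyte genes stood at 0.0068 and -0.10. In vehicle colon library 1, red cell and platelet genes were at 0.40 and the T and NK cell genes at -0.38. In RECTAS colon library 3 they were at 0.76 and 0.24. The part of retained blood in the spread of the lung values was not tested.

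**Figure D5:**
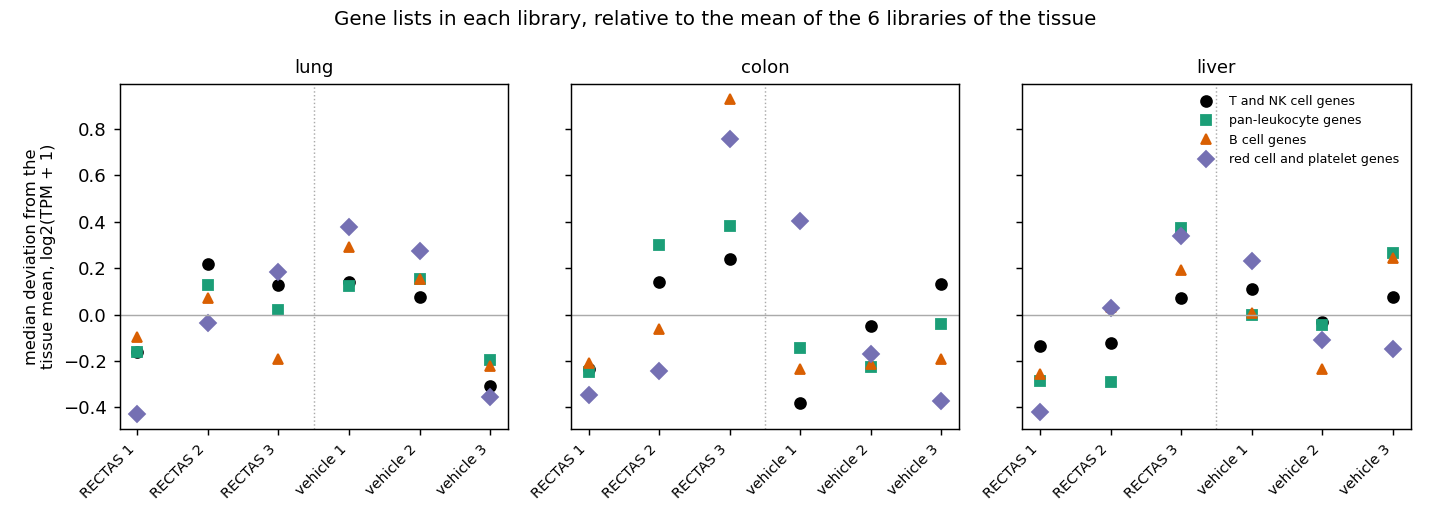
For each library, symbols give the median deviation of a gene list from the mean of the 6 libraries of the tissue, in log2(TPM + 1), with RECTAS libraries left of the dotted line and vehicle libraries right of it. The B cell list, of which 2 of 12 genes passed the filter in colon, reaches 0.93 in RECTAS colon library 3. The T and NK cell genes lie between -0.38 and 0.24 in all 18 libraries.

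Whether the response differed between tissues was tested in 1 limma fit of all 18 libraries. None of the 10 genes passed for any pair of tissues, and Gzma alone had an unadjusted p under 0.05, for both pairs that hold colon, where 0.0228% of 17537 genes were called for lung minus liver, 0.0114% for lung minus colon and 0.0285% for colon minus liver. An unadjusted p under 0.05 was reached by 8.98% of genes for lung minus liver, 3.22% for lung minus colon and 5.37% for colon minus liver. For Gzma the response in lung minus that in colon was -1.12 (SE 0.33, limma adjusted p = 1). The response in colon minus that in liver was 1.16 (SE 0.33, limma adjusted p = 0.559). That in lung minus that in liver was 0.04 (95% interval -0.66 to 0.74), a value whose sign changed with scaling. The colon response of Gzma was thus not shown to differ from that of the other tissues once all genes were counted. Averaged over the 3 tissues, 0 of the 10 genes were called, where 0.188% of genes were (33 genes) and 9.82% had an unadjusted p under 0.05, and Gzma stood at 0.32 (95% interval 0.03 to 0.60, limma adjusted p = 0.449).

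In the lymphocyte lists, no gene passed the threshold for RECTAS against vehicle in lung, colon or liver taken alone. Among the receptor pathway genes the smallest unadjusted p was that of Trac in colon (difference 0.51, limma adjusted p = 1), Zap70 in lung (-0.36, adjusted p = 0.355) and Lcp2 in liver (-0.18, adjusted p = 0.704). Of the genes of recirculating lymphocytes, S1pr1, the receptor that lets lymphocytes leave tissue and that vessel walls also carry, differed by 0.77 in lung (limma adjusted p = 0.177) and by -0.28 in liver (adjusted p = 0.341). Klf2, a transcription factor that drives S1pr1, differed by 0.89 in lung (limma adjusted p = 0.336). Whether the S1pr1 and Klf2 values come from lymphocytes was not tested.

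Averaged over the tissues, 1 of 11 tested lymphocyte chemokine genes passed, where 0.188% of all genes tested did. This was Ccl25, the ligand of the receptor CCR9 that brings T cells to the gut and thymus. In lung it was at 8.81, 8.54 and 9.67 TPM with RECTAS, against 6.00, 5.57 and 6.02 TPM with vehicle. In colon it was at 22.0, 22.6 and 20.5 TPM with RECTAS, against 14.5, 17.0 and 18.2 TPM with vehicle. In liver it was at 6.93, 7.70 and 7.00 TPM with RECTAS, against 4.81, 3.97 and 4.70 TPM with vehicle. The RECTAS libraries lay above the vehicle libraries in each tissue, as for 16.1% of genes tested in lung, 3.43% in colon and 5.75% in liver. Ccl25 was named because it passed the averaged test on these same values, so the separation adds no separate evidence. The averaged difference was 0.50 in log2(TPM + 1) (SE 0.05, limma adjusted p = 0.00069), and Ccl25 stayed past the threshold under all 28 alternatives, at 0.35 to 0.56. Within single tissues it did not pass, with 0.54 in lung (adjusted p = 0.237), 0.38 in colon (adjusted p = 1) and 0.58 in liver (adjusted p = 0.16). The 10 T and NK cell genes had a median averaged difference of 0.03 beside 0.01 for all genes tested. A list of glucocorticoid-responsive genes was included because such hormones act on lymphocytes. In the average 3 of its 10 genes were called (Ddit4, Tsc22d3 and Cdkn1a, all higher with RECTAS), where 0.188% of all genes were. Within single tissues only Ddit4 was called, higher in liver, and it was past the threshold there in 11 of 17 alternatives. Its response was also called lower in colon than in liver, past the threshold in 10 of 28 alternatives, so the average does not stand for a like rise in each tissue.

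The genes most like these in pattern were sought among 15021 genes by the mean absolute distance of log2(TPM + 1) across the 18 libraries, after each gene's own mean was removed. Nearest to the mean of the CD3 genes were Lax1 (0.139), Il21r (0.150), Lime1 (0.157), Brd7 (0.160) and Cdan1 (0.160), where the median of all candidates was 0.60. Lax1 and Lime1 encode membrane adaptors of lymphocyte signalling and Il21r a cytokine receptor of lymphocytes. No such role is given here for Brd7 and Cdan1, which lay at nearly the same distance. Brd7 averaged 70.2 TPM in lung, 36.4 TPM in colon and 22.8 TPM in liver. Nearest to the mean of Gzma, Gzmb, Prf1, Nkg7 and Ccl5 were Spn (0.089), Dock10 (0.153), Abcg1 (0.155), Atp10d (0.160) and Rinl (0.169), where the median was 0.934. Spn encodes CD43, a surface mucin of T cells and other white cells, and no such role is given here for Dock10, Abcg1, Atp10d and Rinl. A small distance means a like pattern over tissues and libraries and does not show that lymphocytes make the transcript. The distances describe these libraries and carry no test.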

How the data were processed

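Gene-level TPM was deposited by the authors for each of the 18 libraries and used unchanged. Per the labels' protocols, TRIzol RNA was selected for polyadenylated transcripts and made into stranded TruSeq libraries. Per the submitters' processing notes, the tools were HISAT2 2.2.0 and RSEM 1.3.0 and the build GRCm38, with no roles stated. How genes were annotated and filtered is not stated in these sources. TPM sums to the same total in each library, so depth is unknown, and a rise of abundant transcripts lowers the share of all others.

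Groups came from the labels. Lung libraries held 24084 to 25227 genes above 0, colon libraries 23308 to 23874 and liver libraries 19836 to 20502. No 2 libraries were identical (0 pairs). Genes reaching 1 TPM in 3 or more libraries of a fit were tested on log2(TPM + 1) with limma 3.58.1 in R 4.3.3 (variance trend, two-sided) and called at a Benjamini-Hochberg adjusted p under 0.05 over all genes tested. Intervals are 95% intervals of that fit. The procedure was tested on simulated data. Of 55401 identifiers, 55141 matched GENCODE M21, and 8 of the 10 genes had a RefSeq promoter window. Python 3.11.15 was used for description and figures.

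The members, lists and tests were chosen with earlier results of these data known. Named were all 10 genes with every value, from each list the genes called with RECTAS or else up to 2 with the smallest p per tissue, in tissue comparisons up to 4 with the highest mean TPM, and the 5 nearest genes per profile, without predicted genes. Alternatives changed the pseudocount (0.1 or 5 TPM), the filter (none or 5 TPM), the scaling (median ratios, quantile normalisation, or rescaling without mitochondrial and the 20 highest genes) or the fit, with robust variance, array weights, the replicate number as a block, leaving out each library, 1 fit of all 18 libraries and, for tissues, the RECTAS libraries or all libraries. Replicate numbers were not taken as pairs. Some genes measured under these rules are withheld and not reported here.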

Additional observations from a re-analysis of the deposited data

How the results depend on the processing

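No member was called with RECTAS under any of the 17 alternatives per tissue or the 28 for tissue differences and the average. The replicate number as a block changed the calls of Cd3e between lung and colon (adjusted p = 0.0565) and of Gzmb between colon and liver (adjusted p = 0.0507) and no other member's call. Same-numbered libraries correlated at -0.25 to 0.39 in their deviations from the group means. Between vehicle and RECTAS lung the values were 0.39, -0.045 and 0.29 for replicates 1, 2 and 3. Libraries with different numbers were not correlated for reference, so whether the numbers mark pairs or a shared batch cannot be told. Depth is unknown, so precision rests on 3 libraries a group. Members that fail the filter, 7 of 10 in liver and 4 of 10 in colon, were not tested within those tissues by default, and colon Gzma gave no value without any 1 RECTAS library or with a filter of 5 TPM. The causes of the changes below were not tested, except that the filter of 5 TPM left fewer members to test.

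Members called between lung and liver were 4 in place of 10 with the filter of 5 TPM and 4 with quantile normalisation. Between lung and colon 4 were called with that filter. Between colon and liver, where 5 were called, there were 2 with a pseudocount of 5 TPM, 3 with no filter and 2 with the filter of 5 TPM. Quantile normalisation turned lung against liver to -0.22 for Cd3e, -0.27 for Cd4 and -0.13 for Gzmb, and colon against liver to -0.24 for Cd3d, -0.28 for Cd3e, -0.0092 for Cd3g, -0.33 for Cd4 and -0.76 for Ccl5 (-0.59 with median ratios). Gzma between colon and liver was 0.35 in the RECTAS libraries. Nkg7 there, at -0.01, became 0.0026 with a pseudocount of 5 TPM, 0.22 with array weights, 0.57 in the RECTAS libraries and 0.28 over all 18 libraries, and ranged from -0.19 to 0.27 when single libraries were left out, as Ccl5 did from -0.066 to 0.30.

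The remaining sign changes were in members that did not pass. For RECTAS against vehicle in lung, array weights gave -0.16 for Cd3g, -0.034 for Cd4, -0.019 for Gzmb, -0.016 for Prf1 and -0.22 for Nkg7. Nkg7 was -0.042 with median ratios, -0.024 with quantile normalisation and -0.037 with rescaling, and Cd3e was 0.014 with a pseudocount of 0.1 TPM and 0.0067 with quantile normalisation, where Cd8a was 0.0039. Leaving out single lung libraries gave -0.29 to 0.15 for Cd3e, -0.11 to 0.28 for Cd3g, -0.045 to 0.20 for Cd4, -0.11 to 0.066 for Cd8a, -0.28 to 0.15 for Gzma, -0.018 to 0.27 for Gzmb, -0.0045 to 0.33 for Prf1 and -0.13 to 0.25 for Nkg7. In colon the same gave -0.23 to 0.18 for Cd3e, -0.031 to 0.39 for Cd3g (-0.090 with array weights), -0.056 to 0.46 for Nkg7 and -0.019 to 0.48 for Ccl5, and in liver -0.21 to 0.00019 for Gzma and -0.39 to 0.16 for Ccl5. The Gzma response in lung minus liver was -0.0044 with a pseudocount of 5 TPM, -0.043 with median ratios, -0.12 with quantile normalisation, -0.023 with rescaling and -0.22 with array weights, and -0.20 to 0.23 without single libraries. The averaged Tsc22d3 difference was past the threshold in 24 of 28 alternatives.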

Other observations

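Some genes of the lists followed here are given for liver and colon, and these were picked after their values were seen. Not all of them are genes of lymphocytes themselves, and which cells made the transcripts was not tested. Cxcl9, a chemokine that attracts activated T cells and NK cells, was at 7.67 to 20.1 TPM in liver, 0.20 to 1.21 TPM in lung and 0.25 to 0.83 TPM in colon. Dntt, which adds bases to rearranging antigen receptor genes in developing lymphocytes, was at 0.87 to 3.32 TPM in liver, while Rag1 and Rag2, which start that rearrangement, did not exceed 0.03 TPM there. Cd1d1, which presents lipids to NKT cells, was at 146 to 183 TPM in liver.

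In colon, Lck, the kinase that starts T cell receptor signalling, was at 3.78 to 5.48 TPM beside a CD3 sum of 3.07 to 7.67 TPM. Xcl1, a chemokine of activated cytotoxic lymphocytes, was at 1.55 to 5.37 TPM in colon and 1.19 to 1.90 TPM in lung. Klrd1 was at 2.03 to 3.36 TPM in colon, where Ncr1, an activating receptor that marks NK cells, was at 0.06 to 0.19 TPM. Lck and Klrd1 were higher in lung than in colon, as the CD3 genes were. In vehicle libraries Lck averaged 8.45 TPM in lung and 4.30 TPM in colon, and Klrd1 12.3 and 2.78 TPM. Ikzf2, a transcription factor of regulatory and some other T cells, was at 2.11 to 7.84 TPM in colon, 0.98 to 1.52 TPM in lung and 0.01 to 0.08 TPM in liver.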
